A study of Rattus norvegicus with 151 samples.

Results

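Markers of macrophages and of Kupffer cells, the macrophages that live in the liver, were followed in rat liver and kidney after 5 daily oral doses of 3 chemicals. The list held 10 genes, Cd68, Cd163, Clec4f, Marco, Csf1r, Vsig4, Cd14, Adgre1, C1qa and Aif1. A gene was measured by the probe sets that the array annotation assigns to it, and the brightest was kept in each tissue. Of the 10 genes, 8 had a named probe set, out of 14218 genes named on the array. Marco and Vsig4 were unnamed in that annotation and are not analysed here. All 8 measured markers were bright enough to be tested in liver and 7 in kidney, where Cd163 was left out.

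The animals were male Harlan Sprague-Dawley rats of 6 to 8 weeks, each carrying no stated genetic change, and whole liver and kidney were taken, so that every cell type of the tissue contributed RNA. Rats received MCHM (methylcyclohexanemethanol), crude MCHM (the technical mixture of which MCHM is the main component) or PPH (propylene glycol phenyl ether), the chemicals of a spill in West Virginia, or corn oil alone as vehicle. Daily doses of both forms of MCHM ran from 0.1 mg/kg through 1, 10 and 100 mg/kg to 300 mg/kg and a top dose of 500 mg/kg. For PPH they ran from 1 mg/kg through 10, 100 and 500 mg/kg to a top dose of 1000 mg/kg, and each chemical had its own vehicle rats. Rats are named by set and number, as in the sample titles. Values are log2 units from Affymetrix Rat 230 2.0 arrays, so that a difference of 1 is a doubling, and 150 arrays were used, 81 of liver and 69 of kidney, in 40 groups of 2 to 5 rats. Groups held 4 rats, except that vehicle groups held 5 for MCHM and for PPH in both tissues and 3 for crude MCHM in kidney. Crude MCHM kidneys numbered 2 at each dose up to 100 mg/kg and 3 at 300 and at 500 mg/kg, and 3 rats stood for crude MCHM liver at 0.1 mg/kg, MCHM kidney at 0.1 mg/kg and PPH kidney at 500 mg/kg. The array medians spanned only 5.22 to 5.38 log2 units. The kidney array of rat MCHM-13 (0.1 mg/kg) was left out, since its column correlated with the remaining kidneys at 0.401 (median r) in the deposited order and at 0.952 once moved by 1 row. The arrays are of different rats, and their number per group sets the precision.

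Macrophages are phagocytes that clear dying cells, particles and microbes, and many of them are long-lived residents of their tissue. In the liver, Kupffer cells sit inside the sinusoids, where they take up old red blood cells, sense bacterial products arriving from the gut and release cytokines to the hepatocytes. They depend on the receptor encoded by Csf1r and its ligands CSF1 and IL-34. Several of the markers are receptors that the cells use for these tasks: Cd163 takes up haptoglobin-bound haemoglobin, Clec4f is a lectin found on Kupffer cells of rodents, and Cd14 binds bacterial lipopolysaccharide for Toll-like receptor 4. Adgre1 encodes the surface receptor F4/80, Cd68 a glycoprotein of lysosomes, C1qa a chain of the first complement component, and Aif1 the actin-binding protein IBA1. In whole tissue, fewer cells of a type and less RNA per cell cannot be told apart.

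The promoters of Adgre1, Csf1r and Clec4f are printed because these genes carried the calls with dose described later. Each is the 250 bases before the RefSeq start of the gene in the rat build GRCr8, written 5′ to 3′ on the strand of the gene. Capitals mark GAGGAA or its reverse complement TTCCTC, the core of the site bound by PU.1, a transcription factor of the myeloid lineage. The Adgre1 window lies at chr9:2329190-2329439 (plus strand), the Csf1r window at chr18:56834129-56834378 (plus strand) and the Clec4f window at chr4:117696408-117696657 (minus strand).
Adgre1: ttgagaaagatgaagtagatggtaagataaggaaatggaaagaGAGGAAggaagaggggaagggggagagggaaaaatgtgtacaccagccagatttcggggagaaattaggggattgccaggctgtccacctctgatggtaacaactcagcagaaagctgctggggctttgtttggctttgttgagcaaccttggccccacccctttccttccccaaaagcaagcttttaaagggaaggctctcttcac
Csf1r: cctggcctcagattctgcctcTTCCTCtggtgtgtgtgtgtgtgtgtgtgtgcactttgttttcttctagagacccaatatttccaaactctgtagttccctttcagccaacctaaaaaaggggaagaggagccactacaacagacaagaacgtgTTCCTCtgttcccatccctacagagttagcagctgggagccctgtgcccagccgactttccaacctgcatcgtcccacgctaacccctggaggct
Clec4f: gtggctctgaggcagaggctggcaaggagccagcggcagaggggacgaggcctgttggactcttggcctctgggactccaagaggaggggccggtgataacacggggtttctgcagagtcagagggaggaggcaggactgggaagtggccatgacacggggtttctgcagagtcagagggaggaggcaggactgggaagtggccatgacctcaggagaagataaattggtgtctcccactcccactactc

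The Adgre1 promoter held 1 match, whose first base lay 207 bases before the start. The Csf1r promoter held 2, both on the opposite strand and the nearer at 95 bases, and the Clec4f promoter held none. Of the 9 markers with a promoter in the RefSeq table, 5 held at least 1 match, the others being Cd68 (27 bases before the start), Marco and Cd14 (2 matches, the farther at 140 bases). Among all 33465 promoters of that table, 23.3% held a match on either strand. These matches describe letters in a window, and binding was not measured. Aif1 had no entry.

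In rats given vehicle, all 8 markers were brighter in liver than in kidney. Clec4f stood at 10.59 ± 0.16 log2 units in 14 livers and 4.91 ± 0.34 in 13 kidneys (mean ± SD). The liver value was 5.65 higher, or 50.4-fold. Cd163 stood at 7.39 ± 0.19 in liver and read 3.22 ± 0.10 in kidney. Both are genes that rat Kupffer cells express. In kidney Cd163 was above the level taken as measurable, 4.66 log2 units, in 0 of 69 arrays, and Clec4f in 61 of 69 arrays. The kidney value of Cd163 is thus only a background reading, and no size is given for its difference between the tissues. The kidney mean of Clec4f lies near that level, so the size of its difference and fold depends in part on background.

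The general macrophage markers differed less between the tissues than Clec4f. Cd14 differed by 3.79 (9.53 ± 0.39 in liver and 5.76 ± 0.27 in kidney), C1qa by 2.17 (9.99 ± 0.22 and 7.82 ± 0.23) and Cd68 by 1.85 (8.22 ± 0.20 and 6.35 ± 0.26). Adgre1 differed by 1.29 (7.24 ± 0.27 and 5.91 ± 0.32), Csf1r by 1.20 (7.85 ± 0.17 and 6.63 ± 0.21) and Aif1 by 0.70 (7.95 ± 0.28 and 7.20 ± 0.31). Every vehicle liver lay above every vehicle kidney for Clec4f, Cd14, C1qa, Cd68, Adgre1 and Csf1r, as the plot of vehicle levels shows. The ranges of Aif1 overlapped. The share of all genes without overlap between the tissues was not computed, so this is a description only. All 7 of these differences, Clec4f included, passed limma's test (moderated, with Benjamini-Hochberg adjustment over all genes tested, called at an adjusted p under 0.05), where 86.3% of the 11800 genes tested did. Cd163 entered that fit through its liver values alone and is left out of the counts. Within the separate vehicle groups, 7 of 7 passed in the MCHM set (76.6% of all genes), 6 of 7 in the crude MCHM set (75.9%) and 7 of 7 in the PPH set (78.5%). The exception was Aif1 in the crude MCHM set, at a difference of 0.32 (adjusted p = 0.0915, limma). With such a share of all genes called, the calls say little about the markers in particular.

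**Figure D1:**
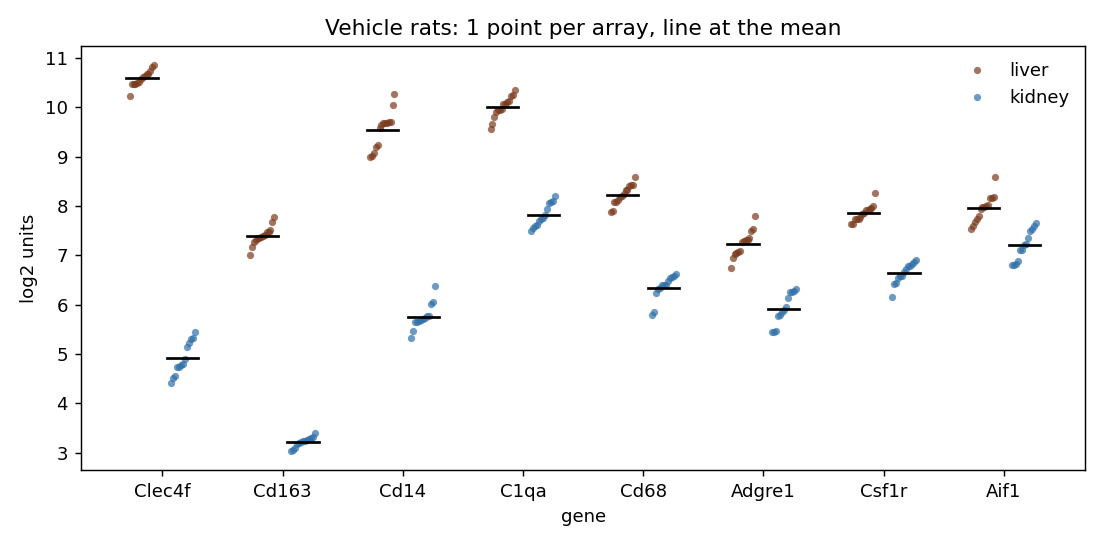
Level of each marker in vehicle rats, in log2 units, with 1 point per array for 14 livers and 13 kidneys and a line at each mean. Among the 7 markers measurable in both tissues the gap is widest for Clec4f (5.65 log2 units) and narrowest for Aif1 (0.70). The kidney points of Clec4f lie near the level taken as measurable, and those of Cd163 are background readings.

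Against this background, the markers moved by small amounts under the chemicals, and at the top doses most values lay below their own vehicle. The counts of markers below vehicle that follow describe direction only. They stand without the share of all genes below vehicle, and the liver markers varied together from rat to rat. Adgre1 was the marker with the most calls. In liver it fell with the rank of the MCHM dose and in the mean response to 500 mg/kg of the 3 chemicals, and in kidney it fell at 1000 mg/kg PPH. Csf1r fell with MCHM dose in liver, and Csf1r and Clec4f fell in the mean liver response. No rise of a marker was called in any comparison of a dose with its vehicle.

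**Figure D2:**
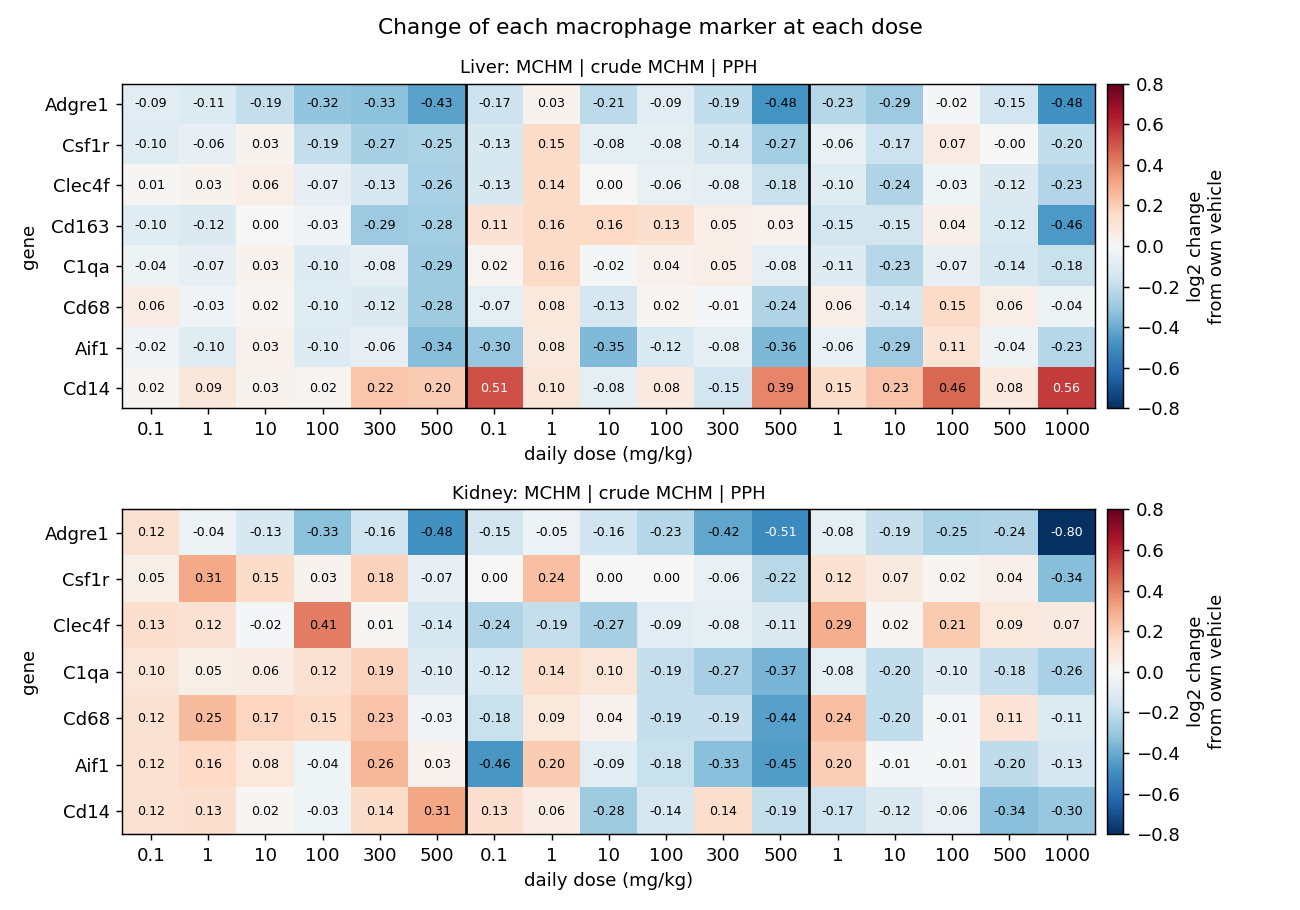
Mean log2 change of each marker from its own vehicle at each dose (mg/kg, from low to high within each chemical) in liver and in kidney, blue for lower and red for higher. The darkest blue cell is Adgre1 in kidney at 1000 mg/kg PPH (-0.80), and the darkest red cell is Cd14 in liver at 1000 mg/kg PPH (0.56).

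Adgre1 is the gene of F4/80, the classical surface marker of mature rodent macrophages. In liver under MCHM, its means were 7.25 ± 0.20 (SD, n = 5) in vehicle rats, then 7.16 ± 0.17, 7.14 ± 0.21, 7.06 ± 0.07, 6.93 ± 0.20, 6.92 ± 0.22 and 6.82 ± 0.23 (n = 4 each) from 0.1 to 500 mg/kg. Neighbouring doses differed by less than the larger of their SDs, while the order of the means followed the dose. The single vehicle livers read 7.06, 7.54, 7.04, 7.31 and 7.27, and the livers at 500 mg/kg read 6.58, 6.76, 6.79 and 7.13. Rats MCHM-40, MCHM-41 and MCHM-42 lay below all vehicle livers and rat MCHM-43 lay among them. Adgre1 fell by 0.07 log2 units per step of dose rank (SE 0.0169, limma adjusted p = 0.0247), and at 500 mg/kg it was -0.43 from vehicle (SE 0.124, adjusted p = 0.107), which did not pass. The trend called 2.38% of all genes and the 500 mg/kg comparison 0.512%. The call of the trend was lost without rat MCHM-4 or without rat MCHM-40, where the adjusted p reached up to 0.0733.

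In the other liver sets the highest dose again had the lowest Adgre1 mean. Under crude MCHM the vehicle livers read 7.29, 7.08, 7.03 and 6.75 and those at 500 mg/kg 6.61, 6.73, 6.48 and 6.43, with no overlap. The difference was -0.48 (adjusted p = 0.209, limma), and the means between were 6.87 ± 0.39, 7.07 ± 0.27, 6.83 ± 0.21, 6.95 ± 0.21 and 6.85 ± 0.33 from 0.1 to 300 mg/kg, in no order of dose. Under PPH the vehicle livers read 7.32, 6.95, 7.80, 7.49 and 7.34 and those at 1000 mg/kg 6.98, 6.57, 6.83 and 7.21. Those groups overlapped, and the difference was -0.48 (SE 0.151, adjusted p = 0.113, limma). The PPH means between were 7.15 ± 0.15, 7.09 ± 0.26, 7.37 ± 0.13 and 7.23 ± 0.22 from 1 to 500 mg/kg.

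**Figure D3:**
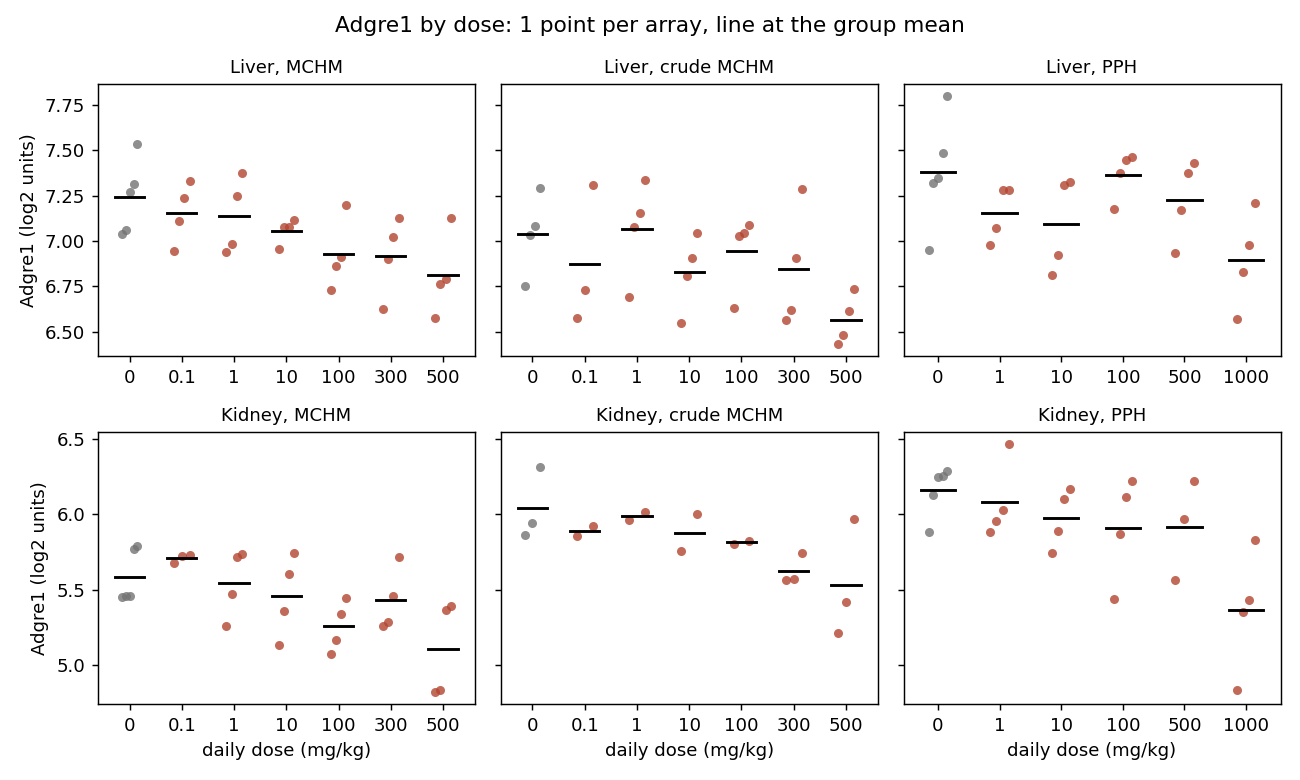
Adgre1 in log2 units by daily dose (mg/kg) in the 6 sets, 1 panel per tissue and chemical, with 1 point per array and a line at each group mean. The highest dose has the lowest mean in each of the 6 panels, and the vehicle means differ between the kidney panels (5.59 in the MCHM set, 6.16 in the PPH set).

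In kidney the lowest Adgre1 mean of each set again stood at its highest dose. Under PPH the vehicle kidneys read 6.25, 6.26, 6.13, 5.88 and 6.29, and those at 1000 mg/kg 5.43, 4.83, 5.35 and 5.83. Every dosed kidney lay below every vehicle kidney, the nearest pair being 5.83 and 5.88. The fall was 0.80 log2 units, to 0.575 of the vehicle level (SE 0.181, 95% interval -1.18 to -0.42, limma adjusted p = 0.0204), where 2.03% of all genes were called. The means at 1, 10, 100 and 500 mg/kg were 6.08 ± 0.26, 5.98 ± 0.20, 5.91 ± 0.35 and 5.92 ± 0.33, so neighbours up to 500 mg/kg differed by less than their SDs and the step to 5.36 ± 0.41 at 1000 mg/kg was larger. The trend fell by 0.13 per rank (adjusted p = 0.0378, limma), with 1.58% of all genes called. The call at 1000 mg/kg was lost without rat PPH-203, PPH-234 or PPH-236 (changes from -0.96 to -0.62 over all arrays left out in turn, adjusted p up to 0.0905). The call of the trend was lost without rat PPH-202, PPH-203, PPH-205, PPH-208, PPH-210, PPH-229, PPH-232, PPH-233, PPH-234 or PPH-236, with an adjusted p of up to 0.111. With the difference of the 5′ and 3′ beta-actin probe sets, a measure of RNA quality, as a covariate, the change at 1000 mg/kg was -0.67 (adjusted p = 0.0563) and the trend -0.10 per rank (adjusted p = 0.168, limma). That difference was -2.70 in vehicle kidneys and -2.44 at 1000 mg/kg, and its part in the result was not tested further. The fat cell marker list averaged 8.27 in the vehicle kidney of rat PPH-206 and 6.83 to 7.34 in the other vehicle kidneys.

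Under MCHM the vehicle kidneys read 5.46, 5.79, 5.46, 5.77 and 5.45 for Adgre1, and those at 500 mg/kg 5.39, 4.84, 4.82 and 5.37. All dosed kidneys lay below all vehicle kidneys, though rats MCHM-40 and MCHM-43 by less than 0.1 log2 units. The difference was -0.48 (adjusted p = 0.233, limma; 0.0177% of all genes called) and the trend -0.08 per rank (adjusted p = 0.0831; 0.124% called). Under crude MCHM the vehicle kidneys read 5.86, 6.32 and 5.95 and those at 500 mg/kg 5.97, 5.42 and 5.21. These groups overlapped through rat Crude_MCHM-139, and the difference was -0.51 (adjusted p = 0.298; 0% of all genes called). In the mean response to 500 mg/kg of the 3 chemicals, Adgre1 fell by 0.41 in kidney (limma adjusted p = 0.0327), the one marker of 7 called where 1.22% of all genes were. This call was lost without rat MCHM-41, MCHM-42, Crude_MCHM-105, Crude_MCHM-106, Crude_MCHM-143, Crude_MCHM-144 or PPH-232 (adjusted p up to 0.126), and with the beta-actin covariate the change was -0.35 (adjusted p = 0.132). The kidney of rat MCHM-42 (500 mg/kg MCHM) had a fat cell list mean of 10.80, where the other 3 of its group had 6.88 to 7.02, and the vehicle kidney of rat MCHM-4 had a hepatocyte list mean of 8.70, where its group had 6.02 to 6.58. Among crude MCHM kidneys the fat cell list reached 8.89 in vehicle rat Crude_MCHM-106 and 9.27 in rat Crude_MCHM-143 at 500 mg/kg. With each array left out in turn, the Adgre1 change lay between -0.58 and -0.39 under MCHM, between -0.73 and -0.35 under crude MCHM and between -0.48 and -0.35 in the mean kidney response. The part of these cells in the Adgre1 values was not tested further.

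The mean liver response to 500 mg/kg, taken over the 3 chemicals in 1 fit, gave the most calls among the markers. Adgre1 fell by 0.35 (SE 0.0887, limma adjusted p = 0.00548), and Csf1r, the receptor on which resident macrophages depend, fell by 0.17 (adjusted p = 0.0224). Clec4f, the Kupffer cell lectin, fell by 0.18 (adjusted p = 0.0443). Thus 3 of 8 markers fell, where 8.81% of all 11624 genes were called in either direction. Aif1 (-0.25, adjusted p = 0.0571) and C1qa (-0.17, adjusted p = 0.0588) did not pass, nor did Cd68 (-0.15), Cd163 (-0.12) or Cd14 (0.22). The Adgre1 call held with each of 26 arrays left out (changes from -0.39 to -0.32). The Csf1r call was lost without rat MCHM-40, Crude_MCHM-104, Crude_MCHM-144 or PPH-232 (adjusted p up to 0.0601). The Clec4f call held in 10 of 26 such fits and was lost without rat MCHM-7, MCHM-8, MCHM-40, MCHM-41, MCHM-42, Crude_MCHM-104, Crude_MCHM-105, Crude_MCHM-106, Crude_MCHM-139, Crude_MCHM-143, Crude_MCHM-144, PPH-205, PPH-206, PPH-229, PPH-231 or PPH-232 (adjusted p up to 0.103). The count of markers called rose to 6 (without rat MCHM-43 or without rat PPH-230) and to 5 (without rat MCHM-3, without rat Crude_MCHM-108 or without rat PPH-202), and fell to 1 without rat MCHM-40, Crude_MCHM-104, Crude_MCHM-144 or PPH-232. The number of all genes called moved too, from 768 to 1058 over these 26 fits.

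That mean took PPH at 500 mg/kg, below its highest dose, and the separate liver sets follow. At 500 mg/kg MCHM, 7 of the 8 markers had values below vehicle and 0 were called (0.512% of all genes were). The lowest adjusted p was 0.0975 (limma), for Csf1r. At an unadjusted p under 0.05, 7 of 8 were lower, where 6.94% of all genes were. The median of the 8 changes was -0.28, and that of all genes 0.01. The changes of the 7 lower markers lay between -0.43 (Adgre1) and -0.25 (Csf1r), with -0.34 for Aif1, -0.29 for C1qa, -0.28 for Cd68 and Cd163 and -0.26 for Clec4f. Cd14 stood at 0.20.

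For Clec4f the MCHM vehicle livers read 10.49, 10.51, 10.47, 10.67 and 10.62 and those at 500 mg/kg 10.05, 10.12, 10.30 and 10.71. For Csf1r they read 7.73, 7.91, 7.74, 7.84 and 7.93, and 7.41, 7.60, 7.51 and 7.79. For Cd163, the haemoglobin scavenger receptor, they read 7.41, 7.47, 7.30, 7.34 and 7.28, and 7.00, 7.02, 7.02 and 7.27. In each of these, rats MCHM-40, MCHM-41 and MCHM-42 were low and rat MCHM-43 was the highest of its group, inside the vehicle range or just outside it. Cd163 was the one marker whose dosed livers all lay below all vehicle livers (2.86% of all genes did), by 7.27 against 7.28. Averaged over the 8 markers, rat MCHM-43 stood at 8.62, rats MCHM-40, MCHM-41 and MCHM-42 at 8.15, 8.31 and 8.25, and the 5 vehicle livers between 8.44 and 8.68.

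**Figure D4:**
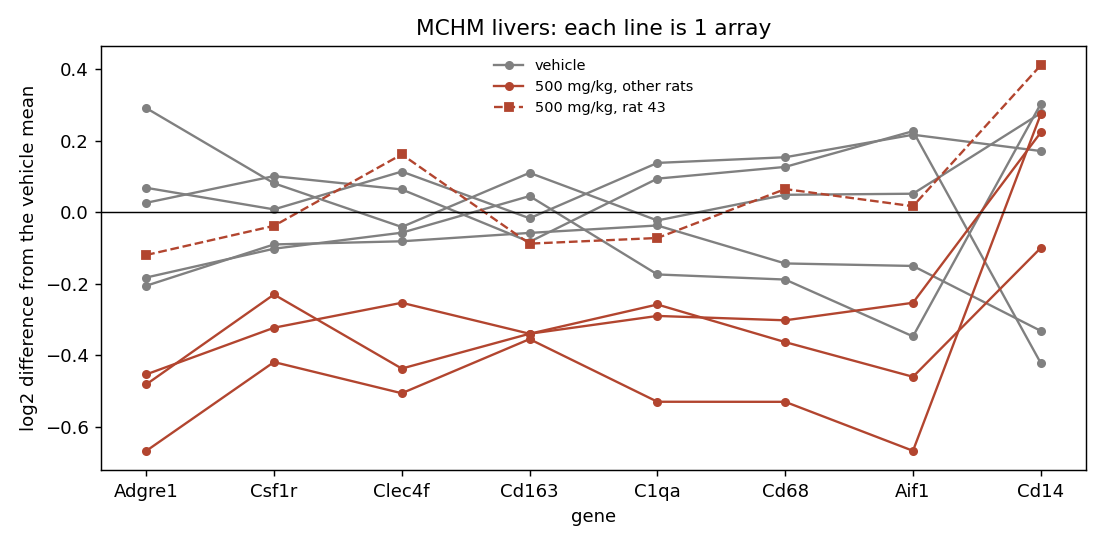
Log2 difference of each marker from the mean of the MCHM vehicle livers, with 1 line per array for the 5 vehicle livers and the 4 livers at 500 mg/kg. The lines of rats MCHM-40, MCHM-41 and MCHM-42 run below 0 for the 7 markers other than Cd14. The line of rat MCHM-43 runs among the vehicle lines except just above them for Clec4f and Cd14 and just below them for Cd163.

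Over the whole MCHM range in liver, Csf1r fell by 0.04 per dose rank (SE 0.00956, limma adjusted p = 0.0148). That call held with each of 25 arrays left out, of the 29 arrays in the fit. With Adgre1, 2 of 8 markers were called in the trend, where 2.38% of all genes were. Without rat MCHM-43, Csf1r was called at 500 mg/kg (-0.32, limma adjusted p = 0.0360), and Adgre1, Cd68, Clec4f and Csf1r were called in the trend. That rat had the highest mean of these markers in its group. Over the arrays left out in turn, 158 to 301 of 11335 genes were called in the trend and 19 to 54 at 500 mg/kg. No marker was called at 0.1, 1, 10, 100 or 300 mg/kg, where 0% of all genes were called up to 100 mg/kg and 0.0265% at 300 mg/kg, nor in all dosed rats against vehicle (0%).

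At 500 mg/kg crude MCHM in liver, 6 of 8 markers had values below vehicle and 0 were called (0.675% of all genes were). At an unadjusted p under 0.05, 4 were lower (5.25% of all genes): Adgre1 (-0.48), Aif1 (-0.36), Csf1r (-0.27) and Cd68 (-0.24). For Csf1r the vehicle livers read 7.92, 7.74, 7.64 and 7.62 and the dosed livers 7.54, 7.38, 7.58 and 7.35, with no overlap. Csf1r and Adgre1 were the 2 markers whose dosed livers all lay below all vehicle livers, as did 3.12% of all genes. Clec4f stood at -0.18, C1qa at -0.08, Cd163 at 0.03 and Cd14 at 0.39, and the median was -0.21. No marker was called at 300 mg/kg (1.01% of all genes), in the trend (1.91%), at 0.1 to 100 mg/kg or in all dosed rats (0% each).

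At 1000 mg/kg PPH in liver, 7 of 8 markers had values below vehicle and 0 were called (1.75% of all genes were). At an unadjusted p under 0.05, 4 were lower (4.64% of all genes), Adgre1 (-0.48), Cd163 (-0.46), Clec4f (-0.23) and Csf1r (-0.20). Cd163 read 7.36, 7.68, 7.77, 7.52 and 7.46 in vehicle livers and 7.46, 6.66, 7.11 and 7.16 at 1000 mg/kg, with rat PPH-235 lowest and rat PPH-233 inside the vehicle range (adjusted p = 0.109, limma). Without rat PPH-233 Cd163 was called, without vehicle rat PPH-203 Adgre1 was, and with all chemicals of the liver in 1 fit Cd163 was (-0.46, adjusted p = 0.0224). No marker had all dosed livers below all vehicle livers (1.84% of all genes did). Aif1 stood at -0.23, C1qa at -0.18, Cd68 at -0.04 and Cd14 at 0.56, and the median was -0.21. No marker was called at 1 or 100 mg/kg (0% of all genes), 10 mg/kg (0.00882%), 500 mg/kg (0.0882%), in the trend (1.32%) or in all dosed rats (1.22%).

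Cd14, the lipopolysaccharide co-receptor, had liver values above vehicle at every top dose, and in no comparison with vehicle was it called. At 1000 mg/kg PPH its livers read 10.32, 10.46, 9.93 and 9.80, and the vehicle livers 9.01, 9.68, 9.19, 10.27 and 9.68. The dosed livers lay above 4 of the 5 vehicle livers, and vehicle rat PPH-206 lay among them. The difference of 0.56 had a 95% interval from 0.01 to 1.11 and an adjusted p of 0.335 (limma). With 500 mg/kg crude MCHM its livers read 9.77, 10.08, 9.75 and 10.55, and the vehicle livers 10.04, 9.63, 9.69 and 9.23, which overlapped. Under MCHM at 500 mg/kg the livers (9.68, 9.63, 9.31 and 9.82) overlapped with the vehicle livers (9.71, 9.68, 9.07, 9.58 and 8.98) as well. At lower doses of crude MCHM its liver values were 0.51, 0.10, -0.08, 0.08 and -0.15 from 0.1 to 300 mg/kg, in no order of dose. Under PPH the liver values were 0.15, 0.23, 0.46 and 0.08 from 1 to 500 mg/kg, higher at each step up to 100 mg/kg and lower at 500 mg/kg. In kidney Cd14 stood at 0.31 under MCHM, -0.19 under crude MCHM and -0.30 under PPH.

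The other kidney markers gave no call with dose. At 500 mg/kg MCHM the values of Cd68, Csf1r, Clec4f, C1qa and Aif1 lay between -0.14 and 0.03, and Adgre1 alone was lower at an unadjusted p under 0.05 (3.25% of all genes) and alone had all dosed kidneys below all vehicle kidneys (1.14%). With 500 mg/kg crude MCHM all 7 kidney markers were below vehicle, with 4 lower at an unadjusted p under 0.05 (9.03% of all genes) and 0 called. The median of the 7 was -0.37, and that of all genes -0.05. The dosed kidneys lay wholly below the vehicle kidneys for 4 of 7, Cd68, Cd14, C1qa and Aif1, where 13.1% of all genes did, with 3 kidneys on each side.

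Aif1 read 7.36, 7.65 and 7.53 in those vehicle kidneys and 7.28, 6.92 and 7.00 at 500 mg/kg crude MCHM (-0.45, adjusted p = 0.297, limma). Cd68, the lysosomal glycoprotein, read 6.33, 6.61 and 6.58, and 6.33, 6.24 and 5.66 (-0.44). C1qa read 7.62, 8.09 and 7.76, and 7.57, 7.59 and 7.20 (-0.37). Rat Crude_MCHM-144 was lowest for Cd68 and C1qa and rat Crude_MCHM-143 for Aif1, and the gap between the groups was small in each. Csf1r stood at -0.22, Cd14 at -0.19 and Clec4f at -0.11.

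At 1000 mg/kg PPH in kidney, Csf1r read 6.78, 6.90, 6.72, 6.59 and 6.57 in vehicle rats and 6.26, 6.32, 6.38 and 6.52 in dosed rats. With Adgre1 it was one of 2 markers without overlap (3.64% of all genes lay wholly below). Its difference was -0.34 (SE 0.0947, adjusted p = 0.0642, limma), and it was called without vehicle rat PPH-208 or dosed rat PPH-237. C1qa (-0.26) was lower at an unadjusted p under 0.05 with these, 3 of 7 in all where 10.1% of all genes were. Aif1 stood at -0.13, Cd68 at -0.11 and Clec4f at 0.07. In kidney no marker was called at any lower dose of the 3 chemicals (0% of all genes), in the trend of crude MCHM (0%), or in all dosed rats against vehicle under MCHM or crude MCHM (0%) or PPH (0.124%).

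The chemicals were compared at matched doses, as differences of their changes from vehicle, and no pair passed the test in any marker. Over 14 pairs of chemical and dose in each tissue, the lowest adjusted p over all genes was 0.452 in liver and 0.303 in kidney (limma), and the lowest adjusted over the pairs of 1 gene was 0.233 and 0.101. In liver at 500 mg/kg, 0% of all genes differed between MCHM and crude MCHM, 0% between PPH and crude MCHM and 0.0344% between PPH and MCHM. In kidney these shares were 0.0261% (MCHM and crude MCHM), 0% (PPH and MCHM) and 0.0956% (PPH and crude MCHM). The 95% intervals reached 0.249 to 0.692 log2 units to each side of the difference in liver and 0.325 to 0.622 in kidney. Unadjusted p was under 0.05 for 5 of 112 differences in liver and 6 of 98 in kidney.

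Csf1r in liver at 500 mg/kg showed the spread of such values. It stood at -0.25 under MCHM, -0.27 under crude MCHM and 0.00 under PPH, and the difference of PPH from MCHM was 0.25 (95% interval 0.00 to 0.50, adjusted p = 0.502 over all genes, limma). In kidney Aif1 at 300 mg/kg differed by 0.60 between MCHM and crude MCHM (95% interval 0.17 to 1.03, adjusted p over pairs 0.101). MCHM is the main component of crude MCHM, and PPH, a phenyl ether, is unrelated to it in structure. PPH was also given at 1000 mg/kg, a dose that had no match in the other chemicals.

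The response in liver was not shown to differ from that in kidney for any marker. At the highest dose 0 of the markers were called in the difference of the tissue responses under MCHM (0.0759% of all genes), crude MCHM (0.0587%) or PPH (0.748%). For Adgre1 the liver response minus the kidney response was 0.05 under MCHM (95% interval -0.33 to 0.44), and 0.03 under crude MCHM (-0.48 to 0.55). Under PPH the difference was 0.32 (-0.17 to 0.81). The widest was that of Cd14 under PPH, 0.86 (95% interval 0.23 to 1.5, limma adjusted p = 0.2).

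Vehicle groups of the sets differed among themselves in kidney, which bears on any comparison across sets. Adgre1 was higher in PPH than in MCHM vehicle kidneys by 0.58 (limma adjusted p = 0.00292), Aif1 by 0.44 (adjusted p = 0.00687) and C1qa by 0.40 (adjusted p = 0.011), where 31.5% of all genes were called. Aif1 was lower by 0.63 in MCHM than in crude MCHM vehicle kidneys (22.3% of all genes called), and no marker differed between PPH and crude MCHM (1.76%). The beta-actin 5′ minus 3′ difference was -1.29 in MCHM, -2.56 in crude MCHM and -2.70 in PPH vehicle kidneys, and with it as a covariate 0 markers were called in either comparison. In liver 0 of 8 markers differed between vehicle groups, where 11.4% of all genes did between MCHM and crude MCHM, 17.4% between PPH and MCHM and 2.55% between PPH and crude MCHM. Liver vehicle groups had beta-actin differences of -1.99, -1.25 and -1.19 in the same order of chemicals. Each dose was therefore set against its own vehicle only.

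Genes that work with the markers were taken as lists. Among 13 measured genes of the CSF1 axis and of macrophage transcription factors, Maf, Zeb2 and Irf8 fell with MCHM dose in liver (3 of 13, where 2.38% of all genes were called), and Maf was called at 500 mg/kg as well (-0.43, limma adjusted p = 0.0257, 0.512% of all genes called). Maf and Zeb2 help to keep the identity of tissue macrophages, and Irf8 directs the development of monocytes and dendritic cells. In the mean liver response, where 8.81% of all genes were called, Maf fell by 0.30 and Zeb2 by 0.20, while Nr1h3, the oxysterol receptor LXR alpha, rose by 0.14. The list's median in that response was -0.08, against 0.01 for all genes. Nr1h3 is also made by hepatocytes, and which cells gave the falls of Maf, Zeb2 and Irf8 was not tested either.

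Of 15 measured genes of phagocytosis, complement and Fc receptors, Mrc1, the mannose receptor, fell with MCHM dose (1 of 15, with 2.38% of all genes called). In the mean liver response (8.81% of all genes called) Mrc1 fell by 0.25 and Fcer1g, the shared chain of Fc receptors, by 0.18, and the list's median was -0.11. Cd36, a fatty acid and lipoprotein receptor that hepatocytes also carry, rose by 0.65 at 1000 mg/kg PPH (1.75% of all genes called). Of 15 other genes of resident macrophages, Cd74, Folr2, Laptm5, Ptprc and Slc40a1 fell with MCHM dose (5 of 15, with 2.38% of all genes called), with a list median of -0.04 per rank against 0.00 for all genes. Slc40a1, the iron exporter ferroportin, fell by 0.22 in the mean liver response and Ptprc, the leukocyte antigen CD45, by 0.28. Hmox1, which breaks down haem, fell by 0.45 at 1000 mg/kg PPH in liver. Which cells gave the falls and the rises in these lists was not tested.

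Of the 11 measured genes of endotoxin sensing that go with Cd14, 0 were called in liver at the top doses, where 0.512% (MCHM), 0.675% (crude MCHM) and 1.75% (PPH) of all genes were. Counts of 0 among so few genes are near these shares. In kidney Tlr4 fell by 0.57 at 1000 mg/kg PPH, with 2.03% of all genes called. Of the 12 genes of inflammatory products and monocyte recruitment measured in MCHM and PPH livers, 0 were called at the highest dose, and in kidney Ptgs2, the inducible cyclooxygenase, fell by 1.79 at 1000 mg/kg PPH. Cybb, the catalytic chain of the phagocyte oxidase, fell there by 0.42 and in the mean kidney response by 0.31. Kidney under crude MCHM had 0 calls in any list, as in all genes at the top dose (0%).

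Single genes of other cell types were called too, in a mean liver response where 8.81% of all genes were. Jchain, a plasma cell gene, fell by 0.46 in that response and Col3a1, a collagen of fibroblasts and stellate cells, by 0.24. A single gene does not stand for its cell type. The mean of the hepatocyte list read 13.53 to 13.66 log2 units in the vehicle and top-dose livers, near the upper end of the array's scale, where a change can go unseen, with Apoa1 falling by 0.25 and Ass1 rising by 0.28 in the mean response. Of 9 endothelial genes 0 were called in it, where 8.81% of all genes were. In kidney at 1000 mg/kg PPH, 9 of 10 cell cycle genes fell (Ccna2 by 1.97) where 2.03% of all genes were called in either direction, Cyp2e1 rose by 0.76, and Cdk1 fell by 1.98 in liver at that dose. The part of these cell types in the marker values was not tested.

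Within groups, the liver markers varied together from rat to rat. Each value was set as its deviation from the group mean, and over 81 livers the 28 pairs of markers had a median Pearson r of 0.608, where pairs of all genes had a median of 0.011 and a 95th percentile of 0.296. The highest was that of Cd68 with Aif1 (0.734), and the lowest those of Cd14, at -0.06 with Aif1 and 0.01 with Adgre1. Cd14 had an r of 0.117 with the mean of the other markers, and the other 7 had 0.64 to 0.78. Over 69 kidneys the 21 pairs had a median r of 0.263 (median of all genes 0.028, 95th percentile 0.379). There C1qa had an r of 0.578 with the other markers, Aif1 0.505, Cd68 0.499, Csf1r 0.389, Cd14 0.292, Adgre1 0.199 and Clec4f -0.232. These correlations are descriptions, and the values of a pair share an array.

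**Figure D5:**
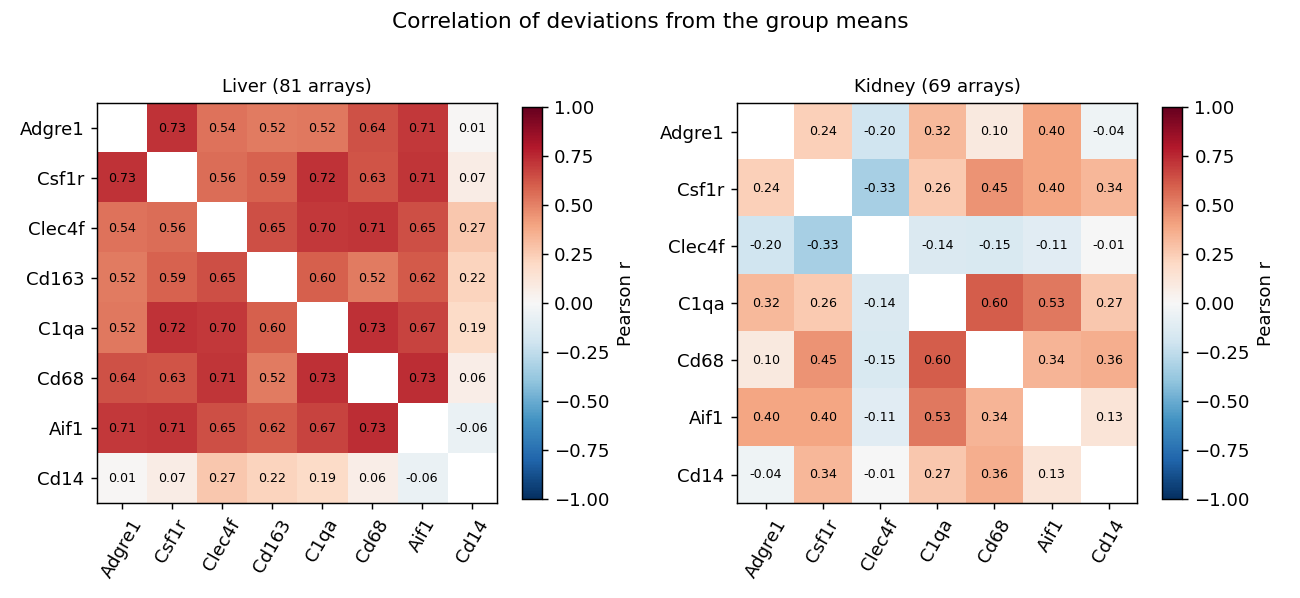
Pearson r of each pair of markers, from deviations from the group means, over 81 livers (left) and 69 kidneys (right). In liver the pairs without Cd14 lie between 0.518 and 0.734, and in kidney the highest are Cd68 with C1qa (0.605), C1qa with Aif1 (0.528) and Cd68 with Csf1r (0.451), while all pairs of Clec4f lie below 0.

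The genes outside the list whose deviations were most like the mean of the markers were chosen by their r. In liver they were Ccl6 (0.847), C1qc (0.818), Ctss (0.802), Ms4a6bl1 (0.795), Cd5l (0.795), Fcer1g (0.789), C1qb (0.772) and Cybb (0.771), over 81 arrays. In kidney they were C1qc (0.806), Fcer1g (0.803), Clec4a3 (0.744), Psmb9 (0.717), Plek (0.7), Psmb8 (0.693), Slc15a3 (0.692) and Cybb (0.663), over 69 arrays. C1qc, Fcer1g and Cybb stand in both. As means of lists in liver, phagocytosis genes had an r of 0.816 with the markers, other resident macrophage genes 0.683, inflammatory products 0.372, endothelial genes 0.332, endotoxin sensing genes 0.326 and lymphocyte genes 0.267. The CSF1 axis and macrophage transcription factors (0.00), hepatocyte genes (0.00) and the beta-actin difference (0.01) had values at 0, and fibroblast and stellate cell genes had -0.16. In kidney the r was 0.754 for phagocytosis genes, 0.639 for other resident macrophage genes, 0.637 for inflammatory products, 0.512 for endotoxin sensing, 0.434 for fibroblast genes, 0.377 for lymphocyte genes, 0.306 for endothelial genes and 0.283 for the CSF1 axis. The beta-actin difference had -0.28 there. In both tissues the phagocytosis list and the other resident macrophage genes had the highest values of these lists.

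Liver and kidney of the same rat could be compared in 65 rats with both tissues. Over 7 markers, the deviations of Cd14 correlated most between liver and kidney, at r = 0.547 and rho = 0.445 (permutation p = 1.2e-04 and 0.00184), and 0.502 without the 2 most distant rats. All genes had a median r of 0.079, and 1.73% of 11031 genes had a higher one. Within sets r was 0.695 over 27 MCHM rats, 0.024 over 16 crude MCHM rats and 0.552 over 22 PPH rats, so the relation did not hold in the crude MCHM set. Aif1 had r = 0.356 (permutation p = 0.0147), C1qa 0.336 (p = 0.0445) and Cd68 0.285 (p = 0.0342), each with a raw permutation p under 0.05. By rank (rho) the permutation p was 0.0718 for Aif1, 0.0279 for C1qa, 0.053 for Cd68 and 0.0435 for Adgre1. Without the 2 most distant rats r was 0.253 for Aif1, 0.434 for C1qa and 0.249 for Cd68. For Aif1 r was 0.508 in the MCHM set, -0.556 in the crude MCHM set and 0.532 in the PPH set, so its sign turned. In the crude MCHM set Cd68 turned too, at -0.137, and C1qa had 0.086. Adgre1 had r = 0.252 (permutation p = 0.0636), Clec4f 0.069 (p = 0.632) and Csf1r -0.067 (p = 0.606). Of these 7 relations Cd14 alone had a share of higher genes under 5%.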

How the data were processed

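Each liver or kidney sample was hybridised to an Affymetrix Rat 230 2.0 array. The deposited values are log2 values for 31099 probe sets, made with RMA per the submitters' processing notes. The RMA version, and whether tissues and chemical sets were normalized together, are not given in the sources used here. The annotation gave 1 gene symbol to 20832 probe sets, several to 436 and none to 9831, and the brightest probe set of a gene in a tissue was used.

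From these log2 values, models were fitted with limma 3.58.1 (lmFit and eBayes) in R 4.3.3, with the data.table package (version 1.17.8). Testing required a value above the tissue's 40th percentile (4.69 for liver and 4.66 for kidney) on 3 or more arrays of the fit. Tests were two-sided, with Benjamini-Hochberg adjustment over all genes tested and a threshold of 0.05, and intervals are 95% intervals. Each tissue and chemical had its own fit of all its groups for doses and for the trend over dose rank (vehicle as rank 0). Differences between chemicals and vehicle groups and the mean response to 500 mg/kg came from 1 fit per tissue, and differences between tissues from fits of both tissues. Both tissues of a rat carry the same rat number in the labels, and 65 rats had both. Blocking on the rat gave consensus correlations between 0.058 and 0.0899. Same-rat correlations used 100000 permutations.

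The markers, the other gene lists and the comparisons were chosen with earlier results of these data known. All markers were described, of each other list genes that were called or had the smallest adjusted p, and for likeness the 8 genes with the highest r. Each fit was tested on simulated data. Alternatives dropped the filter, averaged the probe sets of each gene, quantile normalized the arrays once more, weighted arrays, fitted the 3 chemicals of a tissue together, added the beta-actin covariate, blocked on the rat or left out each array in turn. Promoter sequences are those of RefSeq, build GRCr8.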

Additional observations from a re-analysis of the deposited data

Results flagged for a closer look

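Over 76 combinations of a marker with a vehicle or top-dose group of 4 or 5 arrays, which share the same arrays between markers, 3 held an array whose gap to its nearest neighbour was a large share of the range of its group, and chance gives about 1 in 20 such combinations. Cd163 in the liver of rat MCHM-43 at 500 mg/kg MCHM stood at 7.27, with the next of its group at 7.02, and the gap was 0.944 of the range. Cd68 in the kidney of rat PPH-233 at 1000 mg/kg PPH stood at 6.18, with the next at 6.38, a gap of 0.851 of the range. Aif1 in the vehicle kidney of rat MCHM-5 of the MCHM set stood at 7.10, with the next at 6.88, a gap of 0.761 of the range.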

How the results depend on the processing

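Most marker values at the top doses, in the trends and in the mean responses kept their direction and their side of the threshold. With the probe sets of a gene averaged, 2 changed sign and 1 passed anew; with further quantile normalization, 2 and 2. With array weights 3 changed sign, 1 was lost and 2 passed anew, and with the beta-actin covariate 2 changed sign and 3 were lost. Without the filter 1 was lost, and with the 3 chemicals of a tissue fitted together 1 passed anew. Counts of markers called moved as follows. At 1000 mg/kg PPH in liver the count was 1 with the 3 chemicals in 1 fit, and in kidney 0 with the beta-actin covariate. In the kidney PPH trend it was 0 with array weights (Adgre1 -0.12, adjusted p = 0.0512, limma) and 0 with the covariate. In the mean response it was 5 in liver with further quantile normalization and 5 with array weights, and 0 in kidney with the covariate. Between MCHM and crude MCHM vehicle kidneys it was 3 with array weights and 0 with the covariate, and between PPH and MCHM vehicle kidneys 0 with the covariate. The causes were not tested. Without the filter, Clec4f in the mean liver response had an adjusted p of 0.0545. With the rat as a replicate block, all markers measurable in both tissues were called between vehicle liver and kidney. In the comparison described above, 86.3% of all genes were. Cd163 is not counted, since its kidney values are background readings. Between the tissue responses of each chemical 0 markers were called, and the block changed no other call.

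Leaving out 1 array at a time, the count of markers called ranged from 0 to 1 at the highest dose of MCHM and of PPH in liver, 0 to 2 at 1000 mg/kg PPH in kidney, 1 to 4 in the liver MCHM trend, 0 to 1 in the kidney PPH trend, 1 to 6 in the mean liver response and 0 to 1 in the mean kidney response. It ranged from 0 to 1 between PPH and crude MCHM vehicle livers, 1 to 2 between MCHM and crude MCHM vehicle kidneys and 3 to 4 between PPH and MCHM vehicle kidneys. The number of all genes called moved as well, from 158 to 301 in the liver MCHM trend and from 768 to 1058 in the mean liver response. Values that changed sign lay near 0. With the mean of all probe sets, Aif1 in MCHM kidney was -0.028 at 500 mg/kg and -0.00073 per rank. With array weights, Cd68 in MCHM kidney was 0.0047 at 500 mg/kg and -0.0042 per rank, and Cd163 in the crude MCHM liver trend was 0.0031. With the beta-actin covariate, Clec4f was -0.0125 at 1000 mg/kg PPH in kidney and Cd68 was -0.0126 per rank in MCHM kidney. With further quantile normalization, Cd68 was -0.0056 per rank in PPH liver and Clec4f 0.0041 per rank in PPH kidney.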
